A study of Mus musculus with 2 samples.

Results

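Oxidative phosphorylation is built from the products of 2 genomes, and its RNA was followed here in single cells sorted from mouse tumours. Members were taken by gene symbol: genes named Nduf (a, b, c, s or v and a number), Uqcr, Cox4 to Cox8 with a letter a to c, or Atp5, and the protein genes of mitochondrial DNA, each with at least 200 UMIs (unique molecular identifiers, 1 per captured RNA molecule) over all barcodes holding at least 500 UMIs in both libraries. Of the 32285 annotated genes, 92 matched by name and 89 passed this minimum: 76 encoded in the nucleus and all 13 encoded by mitochondrial DNA. Cox7b2, Cox8b and Cox8c matched by name but had too few UMIs. The minimum was set on both libraries together, so a gene could pass it through the library where it was higher.

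Mice carried tumours of B16-hAXL, a derivative of the mouse melanoma line B16 whose name points to human AXL, and received intraperitoneal PBS or 200 µg of 6C5, an antibody against the receptor tyrosine kinase AXL. Tumours were taken on day 15 and digested with collagenase and DNase, and CD45+ cells (leukocytes) were sorted and captured with 10x Genomics v3 chemistry. Each group is 1 library from animals of genotype WT; the strain, age and number of mice behind a library, and the day and number of doses, are not given in the sources used here. Both groups share the hAXL tumour line, the digestion and the sort, so a difference between them is a difference between 2 libraries and has no replicate check.

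The respiratory chain of the inner mitochondrial membrane passes electrons from NADH through complex I, complex III and complex IV to oxygen and pumps protons, and ATP synthase (complex V) uses the returning protons to make ATP. A few core subunits of these complexes are transcribed from mitochondrial DNA as long polycistronic RNAs that are cut into single messages, while all other subunits come from separate nuclear genes and are imported as proteins. Complex II, succinate dehydrogenase, is wholly nuclear. In tumour leukocytes the balance between this pathway and glycolysis is known to vary with activation and oxygen supply.

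Promoters of 3 nuclear members are shown because their levels in 6C5 lay on opposite sides of those in PBS: Atp5k was above in each of the 5 cell classes where it had at least 100 UMIs, Atp5b was below in all 7 and Cox7a2l in 6 of 7, as shares of the UMIs of a class. Of the 76 nuclear members, 62 matched a promoter in RefSeq (GRCm38.p6), a window from 250 bases before to 50 bases after the gene start, 300 bases in all. Those not matched included Atp5a1, Atp5mpl, Cox6a2, Ndufa4l2, Uqcrc2 and Uqcrq. The 250 bases before the start are printed 5′ to 3′ on the gene's own strand, with the letters of the NRF1 core in capitals. Atp5k (ATP synthase subunit e) lies on the minus strand at chr5:108434400-108434649, Atp5b (the catalytic beta subunit) on the plus strand at chr10:128083057-128083306, and Cox7a2l (a COX7A family protein of respiratory supercomplexes) on the minus strand at chr17:83514334-83514583.
Atp5k: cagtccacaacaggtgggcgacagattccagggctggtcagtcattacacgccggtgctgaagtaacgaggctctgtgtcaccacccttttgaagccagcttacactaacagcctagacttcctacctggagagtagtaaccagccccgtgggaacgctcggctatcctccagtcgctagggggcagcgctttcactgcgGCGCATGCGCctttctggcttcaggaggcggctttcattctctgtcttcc
Atp5b: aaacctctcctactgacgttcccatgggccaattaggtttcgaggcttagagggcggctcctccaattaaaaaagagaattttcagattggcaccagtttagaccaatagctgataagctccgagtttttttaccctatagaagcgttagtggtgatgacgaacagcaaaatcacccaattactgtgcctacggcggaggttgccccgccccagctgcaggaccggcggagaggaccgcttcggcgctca
Cox7a2l: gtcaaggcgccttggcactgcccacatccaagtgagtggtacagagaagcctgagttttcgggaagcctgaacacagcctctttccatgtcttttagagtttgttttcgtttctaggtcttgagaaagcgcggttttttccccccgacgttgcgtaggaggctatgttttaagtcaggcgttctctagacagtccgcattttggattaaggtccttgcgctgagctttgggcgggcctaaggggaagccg

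The NRF1 core searched for was GCGCATGC, on both strands. The 2 matches in Atp5k, 50 and 48 bases before the start, lie on opposite strands and overlap, so the capitals mark 1 stretch. It occurred in 9 of 62 member promoters (14.5%) and in 3.05% of 27025 gene promoters of the same length. The ETS core CCGGAAG occurred in 24.2% of member promoters and 9.93% of all, and the YY1 core AAGATGG in 16.1% and 7.28%. CCAAT occurred in 43.5% and 41.1%, and TATAAA in 9.68% and 15.7%. The printed stretches of Atp5b and Cox7a2l hold no NRF1 core. The same 250 bases of Ndufv3 and Ndufa1 hold none either, and their ratios were above 1 in all 7 classes. Uqcrc1, below 1 in all 7, had the core in its 300-base window. Whether the core goes with the direction of the ratio was not tested. A match is only a run of letters, and the libraries did not measure binding.

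Depth was similar, at 78923567 UMIs in PBS and 85921419 in 6C5, with 14520 and 13936 barcodes of at least 500 UMIs. After filters on genes, mitochondrial share and doublets, 12426 and 12074 barcodes were clustered together. Of these, 6817 (54.9%) and 6317 (52.3%) fell in clusters whose summed profile was like free RNA and stayed unnamed, and 4276 and 4931 were placed in classes named from marker genes. Cluster names were rebuilt here, so the suffix "-like" is used. The classed cells of both libraries shared 33 cell barcodes. The T-like class had 369 PBS and 462 6C5 cells, NK-like 257 and 249, B-like 249 and 233, monocyte/macrophage-like 1860 and 2042, dendritic-cell-like (DC-like) 785 and 445, neutrophil-like 509 and 1058, and melanoma-like 175 and 382. A plasmacytoid DC-like (pDC-like) class of 72 and 60 cells was below the 100 cells set for a comparison and is given by its values. The melanoma-like cells passed a CD45 sort with 7.89 and 8.08 CPM (a gene's UMIs scaled to a class total of 1000000) of Ptprc, the CD45 gene, against 340.1 or more in each immune class, so a CD45 message was close to absent in them.

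Mitochondrial-encoded RNA was lower in the 6C5 library in all 7 classes compared, while nuclear-encoded RNA of the same pathway was slightly higher in 5 of them. Levels are summed over the members in CPM, and intervals are exact 95% intervals that cover counting error only. PCR copies are removed by UMIs, but the spread between animals is in no interval. In the T-like class the 13 mitochondrial members summed to 9585 CPM (9477 to 9693) in the PBS library and 5992 (5913 to 6071) in the 6C5 library, a ratio of 6C5 over PBS of 0.625. In the NK-like class they summed to 7080 and 4836 CPM (ratio 0.683), and in the B-like class to 13146 and 8167 CPM (ratio 0.621). The lymphoid classes thus lay close together in ratio although B-like cells started from a level well above that of NK-like cells.

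Monocyte/macrophage-like and DC-like cells held the lowest ratios of the 7 classes. Monocyte/macrophage-like cells had 7678 CPM in PBS and 3665 in 6C5, which is 2.09-fold lower (ratio 0.477, 0.474 to 0.481). DC-like cells had 6095 and 3242 CPM (ratio 0.532). Neutrophil-like cells had 6610 and 4462 CPM (ratio 0.675), and melanoma-like cells 11375 and 6863 CPM (ratio 0.603). The small pDC-like class had 9870 and 5496 CPM (ratio 0.557). With a difference of 1.5-fold taken as the size that is called, 5 of 7 classes were past it in the lower direction, while NK-like cells (1.46-fold lower) and neutrophil-like cells (1.48-fold lower) were just short. T-like cells were short of it when levels were averaged over cells or cycling subclusters were left out. Melanoma-like cells were short of it with TMM factors (edgeR's trimmed-mean scaling) or in cells of 2000 to 8000 UMIs only. That range held just 6 PBS and 30 6C5 melanoma-like cells. Over the alternatives 4 to 6 classes were past 1.5-fold lower.

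The 76 nuclear members did not follow. Their sum was 22447 and 23559 CPM in T-like cells (ratio 1.05), 20526 and 22118 in NK-like cells (1.08), 13239 and 14347 in B-like cells (1.08), 18500 and 19413 in DC-like cells (1.05) and 37743 and 39900 in melanoma-like cells (1.06). It was below 1 in monocyte/macrophage-like cells, with 20707 and 18370 CPM (ratio 0.887), and in neutrophil-like cells, with 6353 and 4513 CPM (ratio 0.710). No class was past 1.5-fold for the nuclear sum. Averaged over the 7 classes on the log2 scale, the nuclear sum differed by -0.03, the mitochondrial sum by -0.74, and the mitochondrial against the nuclear sum by -0.71.

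**Figure D1:**
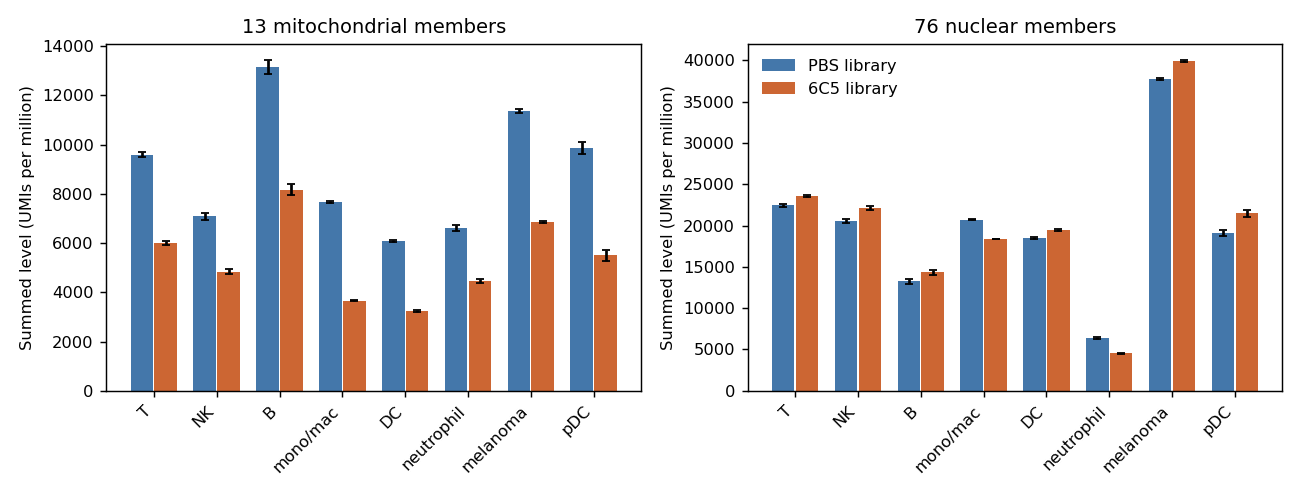
Summed level of the 13 mitochondrial members (left) and the 76 nuclear members (right) in CPM (the axis spells out the unit), for the PBS and 6C5 libraries; bars start at 0 and error bars are exact 95% counting intervals. The 6C5 bar is lower in all 8 classes on the left, and on the right it is lower in monocyte/macrophage-like (mono/mac) and neutrophil-like cells.

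Dividing the mitochondrial by the nuclear sum removes the class total from the comparison. This quotient in 6C5 over that in PBS was 0.596 in T-like, 0.634 in NK-like, 0.573 in B-like, 0.538 in monocyte/macrophage-like, 0.507 in DC-like and 0.571 in melanoma-like cells. In neutrophil-like cells it was 0.950 (0.925 to 0.976), because both sums were lower there. Neutrophil-like cells were also the class with the most mitochondrial RNA per nuclear member RNA in the PBS library (quotient 1.04), followed by B-like cells (0.993).

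Among classes of the PBS library, B-like cells had the highest mitochondrial sum and DC-like cells the lowest. The order was B-like, melanoma-like, pDC-like, T-like, monocyte/macrophage-like, NK-like, neutrophil-like and DC-like, and only the counting intervals of the pDC-like and T-like sums overlapped between neighbours. The nuclear sum followed another order, from melanoma-like (37743 CPM) to neutrophil-like cells (6353 CPM), and there monocyte/macrophage-like and NK-like cells overlapped. Single cells showed the same direction as the sums. The median cell of the T-like class had 0.897% mitochondrial UMIs in PBS and 0.509% in 6C5, with the middle 50% of cells between 0.568% and 1.48% and between 0.288% and 0.841%. In monocyte/macrophage-like cells the medians were 0.659% and 0.278%, and the upper quartile of the 6C5 cells (0.467%) lay below the PBS median. In neutrophil-like cells the medians were 0.300% and 0.204%, and the cells overlapped widely.

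All 13 mitochondrial genes took part. Of the 91 combinations of gene and class, 86 had at least 100 UMIs, and in all 86 the ratio was below 1; 61 were past 1.5-fold lower and 0 past 1.5-fold higher. The 5 combinations with fewer UMIs were also below 1. Of the mitochondrial genes with at least 100 UMIs, 8 of 13 were past the threshold in T-like cells, where 3.32% of 6953 measured genes were, 5 of 12 in NK-like cells (3.22% of all measured genes), and 8 of 11 in B-like cells (3.76%). In monocyte/macrophage-like cells it was 13 of 13, but 28.9% of all measured genes were lower there. DC-like cells had 13 of 13 (6.01% of all), neutrophil-like cells 4 of 11 (27.5%) and melanoma-like cells 10 of 13 (9.55%). In neutrophil-like cells the share of members was thus close to that of the background.

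**Figure D2:**
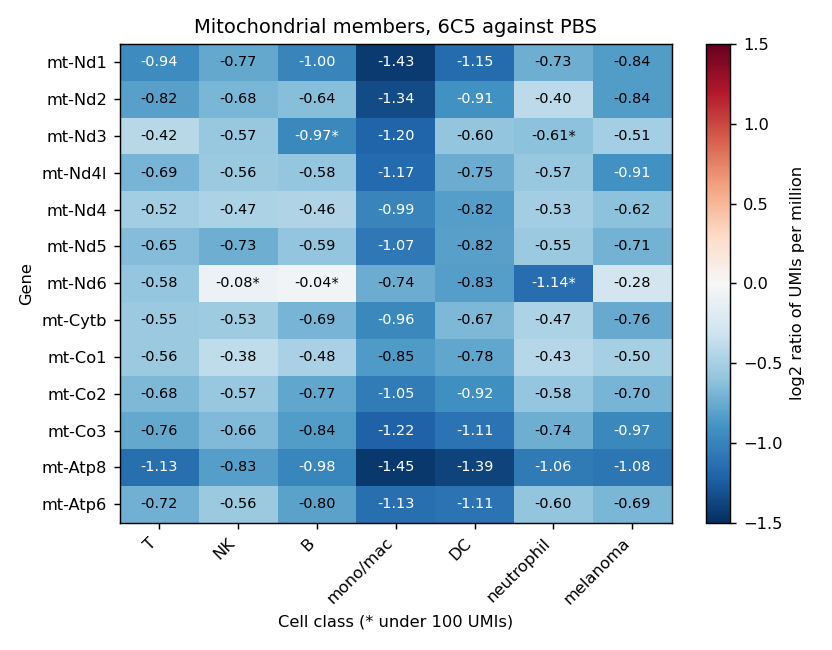
Log2 ratio of 6C5 over PBS (CPM) for each of the 13 mitochondrial genes (rows) in each of the 7 classes compared (columns); an asterisk marks fewer than 100 UMIs. Each of the 91 cells is below 0, the monocyte/macrophage-like column is the darkest, and mt-Atp8 and mt-Nd1 are among the darkest rows.

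Complex I has 7 mitochondrial members, which form its membrane arm. mt-Nd1 was past 1.5-fold lower in all 7 classes, with 440.4 CPM in PBS and 163 in 6C5 in monocyte/macrophage-like cells (ratio 0.371) and 572 and 298 CPM in T-like cells (0.522). mt-Nd2 was past the threshold in 6 classes and mt-Nd5 in 6. mt-Nd4 was lower in each class but past the threshold in 3, with 268 and 187 CPM in T-like cells (0.699). mt-Nd6, the one member transcribed from the opposite strand, had few UMIs: 33.4 and 27.5 CPM in melanoma-like cells (0.824, 0.698 to 0.976) and 25.6 and 15.3 CPM in monocyte/macrophage-like cells (0.598). mt-Nd3 also had few, with 45.2 and 33.8 CPM in T-like cells (0.747). The complex I genes therefore shared a direction with ratios that ranged widely.

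mt-Cytb, the mitochondrial subunit of complex III, had 1044 and 712 CPM in T-like cells (0.682) and 810 and 416 CPM in monocyte/macrophage-like cells (0.513); it was past the threshold in 4 of 7 classes. Complex IV has its catalytic core from mitochondrial DNA. mt-Co1, which holds the site where oxygen is reduced, had 2109 and 1429 CPM in T-like cells (0.678), 1608 and 1236 in NK-like cells (0.769) and 1682 and 936 in monocyte/macrophage-like cells (0.556). It was past the threshold in only 2 classes, monocyte/macrophage-like and DC-like. mt-Co2 was past it in 5 and mt-Co3 in 7, with 1122 and 482 CPM of mt-Co3 in monocyte/macrophage-like cells (0.430).

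The membrane subunits of ATP synthase, mt-Atp6 and mt-Atp8, are read from overlapping frames. mt-Atp8 had the lowest ratio of all measured mitochondrial genes in 6 of 7 classes, and mt-Nd1 had it in B-like cells. mt-Atp8 went from 241 to 110.3 CPM in T-like cells (0.457), from 176 to 64.5 in monocyte/macrophage-like cells (0.367) and from 270.2 to 128 in melanoma-like cells (0.473). mt-Atp6 had 1242 and 752 CPM in T-like cells (0.606). The genes of mt-Atp8 and mt-Atp6 share 43 bases, those of mt-Nd4l and mt-Nd4 share 7 and those of mt-Atp6 and mt-Co3 share 1, so reads could be split between them by the counting, and nuclear copies of mitochondrial DNA could also take reads.

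The ratios were unequal, so the make-up of mitochondrial RNA also differed between the libraries, in the same direction in all 7 classes for 5 of the 13 genes. The share of mt-Co1 among mitochondrial UMIs was higher in 6C5 in 7 of 7 classes, for example 22.0% and 23.9% in T-like, 22.7% and 26.2% in B-like and 21.9% and 25.5% in monocyte/macrophage-like cells. mt-Nd4 was also higher in share in 7 of 7. The shares of mt-Atp8, mt-Nd1 and mt-Co3 were lower in 7 of 7; mt-Atp8 made up 2.52% and 1.84% in T-like and 2.34% and 1.68% in DC-like cells. mt-Nd1 made up 5.73% and 4.45% in monocyte/macrophage-like cells. The other 8 genes were split between classes, from mt-Nd3, higher in 3 and lower in 4, to mt-Nd6, higher in 6, and mt-Atp6, lower in 6. These are shares within a library and show unequal change, not that any gene stayed level.

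Outside neutrophil-like cells each complex kept the split between genomes. In all 28 combinations of 4 complexes and 7 classes, the mitochondrial subunits of a complex had a lower ratio than its nuclear subunits. In T-like cells the ratios were 0.600 and 1.07 for complex I, 0.682 and 1.05 for complex III, 0.637 and 1.07 for complex IV, and 0.581 and 1.02 for complex V, mitochondrial before nuclear. In DC-like cells complex V was furthest apart, at 0.450 and 1.03. In neutrophil-like cells the pairs lay close: 0.669 and 0.735 for complex I, 0.680 and 0.701 for complex IV, and 0.632 and 0.677 for complex V. The counting intervals of the paired ratios overlapped there in all 4 complexes, for example 0.630 to 0.710 and 0.699 to 0.773 for complex I.

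The direction also held within finer groups of the classes that were divided. Classes were divided into clusters and subclusters, and 27 of these had at least 10 cells in each library and 4 did not. The B-like, melanoma-like and pDC-like classes each stayed whole as a single cluster. Their class values count among the 27, and these classes had no check by subcluster. The mitochondrial sum had a ratio below 1 in all 27, a counting interval below 1 in 25, and was past 1.5-fold lower in 20, with ratios from 0.402 to 0.967. Among T-like subclusters, the one led by Dapl1 and Ccr7, the receptor for homing to lymph nodes, had 15297 and 6222 CPM (0.407), the one led by Ly6c2 and Klra6 had 11441 and 5037 (0.440), and the one with Ccl1 and Cd8a among its leading genes, which was also cycling, had 7904 and 4759 (0.602). The subcluster with Penk and Foxp3, the regulatory T-cell factor, among its leading genes had 8890 and 4278 CPM (0.481). T-like subclusters were not divided into CD4 and CD8 cells, because the genes leading some of them go against such names. Conventional DC-like cells of type 1 had a ratio of 0.598, those of type 2 of 0.528, and mature DC-like cells (Ccr7, Fscn1, Ccl22) of 0.467. The 7 monocyte/macrophage-like subclusters ranged from 0.479 to 0.639. The intervals that reached 1 belonged to a T-like subcluster led by Il17a with 15 cells in each library (0.937, 0.814 to 1.08) and to one led by Hs6st3 with 20 and 44 cells (0.967, 0.918 to 1.02). The Hs6st3-led one had 44160 and 42684 CPM of mitochondrial members at median depths of 1941 and 1864 UMIs. It and one led by Plxdc2 (22 and 23 cells) lacked the 3 markers set for a name. Both kept the T-like name of their parent cluster, and their part in the T-like sums was not tested.

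**Figure D3:**
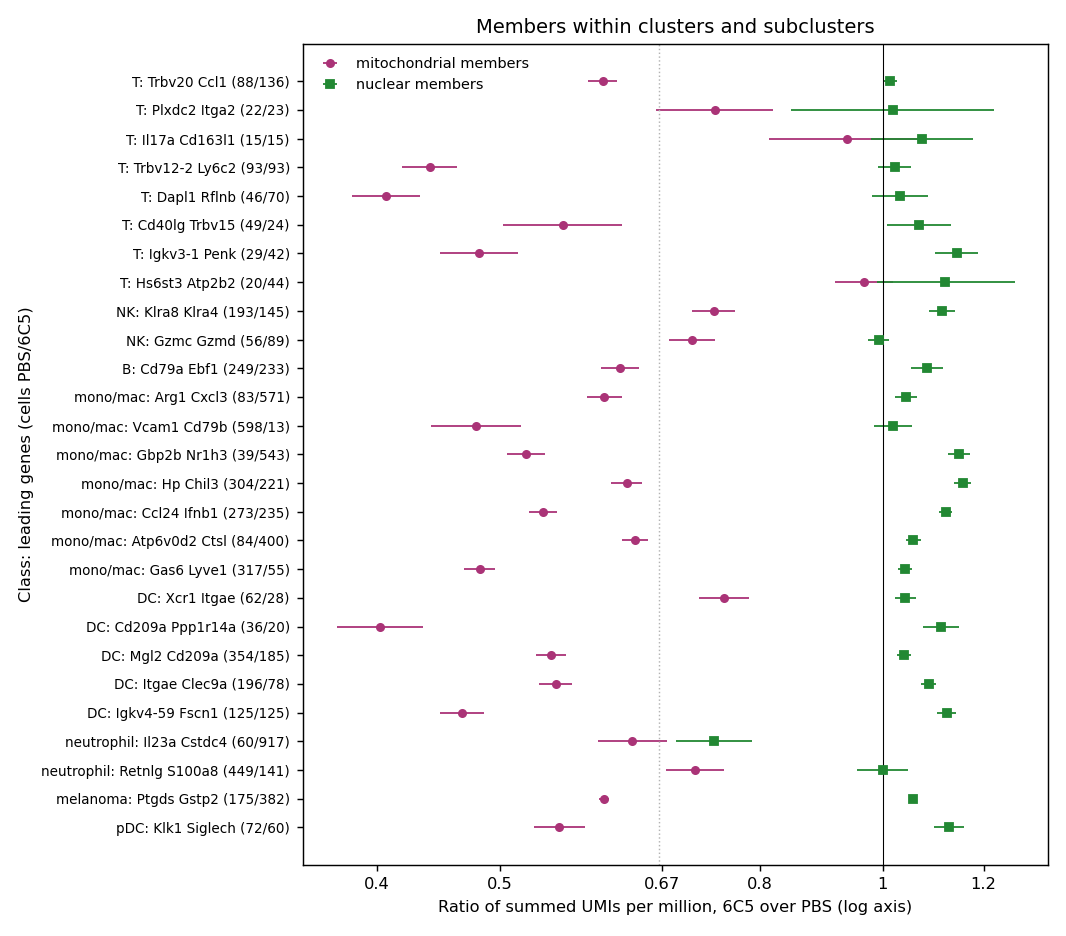
Ratio of summed CPM, 6C5 over PBS (log axis), of the mitochondrial members (circles) and the nuclear members (squares) in 27 clusters and subclusters, each named by its leading genes with its cells in PBS and 6C5; lines are exact 95% counting intervals and the dotted line marks 1/1.5. All 27 circles lie left of 1, and the squares lie near 1 apart from the neutrophil-like group led by Il23a at 0.737.

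The ratio was also read within ranges of depth. When cells of a class were grouped by their UMI total, the mitochondrial ratio was below 1 in all 22 groups with at least 20 cells per library, counting intervals included, and ranged from 0.395 to 0.845. The mitochondrial share of free RNA, read from barcodes of 10 to 100 UMIs, was itself lower in the 6C5 library, at 1.63% and 0.919%, whereas the nuclear members made up 1.93% and 2.12% of it. Free RNA was estimated to supply 1.18% to 7.56% of the UMIs of the classes compared. It supplied 18.7% and 9.44% of the mitochondrial UMIs of neutrophil-like cells in PBS and 6C5, and at most 6.99% of those of the other classes compared. With free RNA subtracted, the mitochondrial sum averaged -0.72 on the log2 scale over classes. The filter on cells removes barcodes over 10% mitochondrial UMIs and so acts on the members themselves: 418 barcodes (2.90%) were removed in PBS and 253 (1.83%) in 6C5. Without this limit the mitochondrial sum stayed lower in all 7 classes, and in neutrophil-like cells its log2 ratio was then -0.19.

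Single nuclear members seldom reached 1.5-fold outside 2 classes. Of the nuclear members with at least 100 UMIs, none of 72 was past it in T-like cells (all genes: 2.53% higher and 3.32% lower), 1 of 72 was higher in NK-like cells (2.04% of all genes) and 2 of 61 were higher in B-like cells (1.98%). In DC-like cells 1 of 73 was lower (6.01%) and none higher (4.06%), and in melanoma-like cells 1 of 74 was higher (5.37%). In monocyte/macrophage-like cells 2 of 75 were higher and 12 lower, where the background was 6.34% and 28.9%. In neutrophil-like cells 1 of 53 was higher and 22 were lower, with 17.6% and 27.5% in the background. The members passed the 100-UMI minimum in part through the library where they were higher, so these counts describe only the genes that passed.

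The medians place the nuclear members slightly above the other genes of most classes. Their median log2 ratio and that of all measured genes were 0.08 and -0.02 in T-like, 0.09 and -0.04 in NK-like, 0.10 and -0.03 in B-like, -0.16 and -0.33 in monocyte/macrophage-like, 0.05 and -0.07 in DC-like and 0.07 and -0.10 in melanoma-like cells. Neutrophil-like cells were the exception, with -0.55 against -0.18. The scaling matters in 3 classes: with edgeR's TMM factors the median of all genes moved up by 0.30 in monocyte/macrophage-like, 0.35 in neutrophil-like and 0.16 in melanoma-like cells, and by less than 0.1 elsewhere. The nuclear sum of monocyte/macrophage-like cells then changed sign to 0.13, and that of neutrophil-like cells was -0.15. The nuclear calls of monocyte/macrophage-like cells went from 2 higher and 12 lower to 6 and 2, the lower ones being Cox6b2 and Cox7a2l, and in neutrophil-like cells the lower calls went from 22 to 9. The shares of all genes called lower went to 13.7% and 13.3% in these classes, and 12.2% and 28.6% were then called higher. Summed over classes, calls among nuclear members went from 7 higher and 35 lower to 12 higher and 12 lower, of 480 combinations of gene and class. The share over all genes is given per class only. Called mitochondrial genes went from 13 to 11 in monocyte/macrophage-like, from 4 to 1 in neutrophil-like, from 10 to 6 in melanoma-like, from 8 to 6 in B-like and from 13 to 12 in DC-like cells. In the last 3 classes, 5.14%, 2.71% and 4.57% of all genes were lower with TMM factors. In all, called combinations went from 61 to 49 of 86, while the mitochondrial sum was below 1 in all 7 classes under both scalings.

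**Figure D4:**
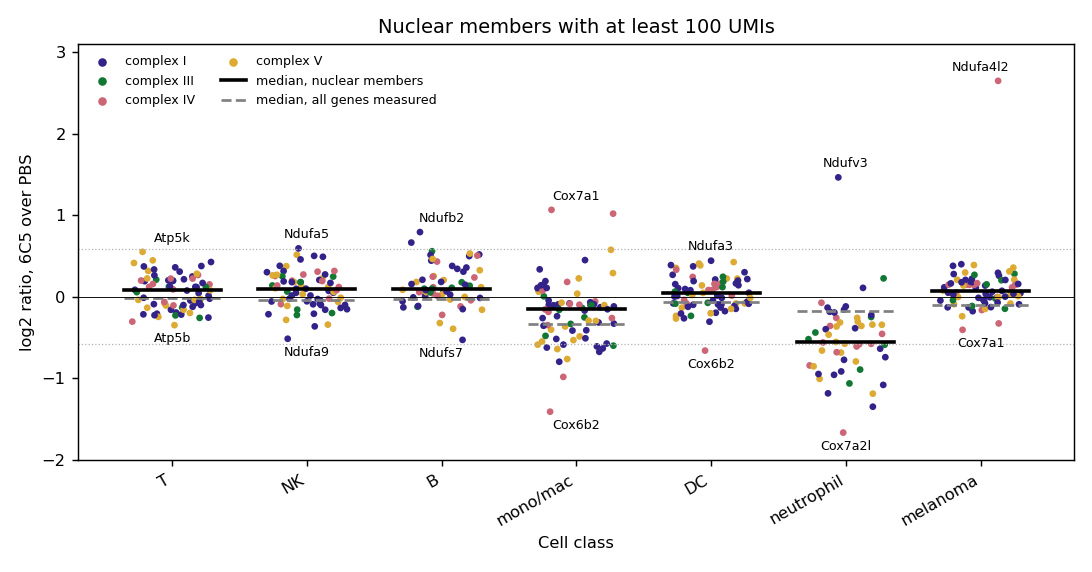
Log2 ratio of 6C5 over PBS for each nuclear member with at least 100 UMIs in the class, coloured by complex; solid bars are the median of the nuclear members, dashed bars that of all genes measured, and dotted lines mark 1.5-fold. Points gather near 0 in T-like, NK-like, B-like, DC-like and melanoma-like cells and spread downward in monocyte/macrophage-like and neutrophil-like cells.

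The lower nuclear sum of monocyte/macrophage-like cells was not seen inside its subclusters. All 7 subclusters had a ratio above 1, from 1.02 to 1.16, although the whole class had 0.887. The libraries filled them unequally. PBS cells were mostly in the subclusters led by Vcam1 and Cd79b (598 of the PBS and 13 of the 6C5 cells), Gas6 and Lyve1 (317 and 55), Hp and Chil3 (304 and 221) and Ccl24 (273 and 235). 6C5 cells were mostly in those led by Arg1 and Cxcl3 (83 and 571), Gbp2b and Nr1h3 (39 and 543) and Atp6v0d2 (84 and 400). The Arg1-led subcluster had the lowest nuclear sum, 11903 and 12415 CPM, and the Gas6-led one the highest, 23114 and 24056 CPM. Averaged over subclusters, the class had log2 ratios of 0.11 for the nuclear and -0.85 for the mitochondrial sum. Cycling monocyte/macrophage-like cells, 162 in PBS and 4 in 6C5, were another such difference in make-up.

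Neutrophil-like cells formed 2 clusters that the libraries also filled unequally. The cluster led by Retnlg and S100a8 held 449 PBS and 141 6C5 cells, with 6427 CPM of nuclear members in both libraries (ratio 1.00) and a mitochondrial ratio of 0.712. The cluster led by Il23a held 60 PBS and 917 6C5 cells, with 5764 and 4246 CPM (0.737) and a mitochondrial ratio of 0.635. The 22 nuclear members that were lower in the whole class included Atp5h, subunit d of the ATP synthase stalk (145 and 63.7 CPM, ratio 0.439), Ndufb11 of complex I (70.5 and 31.0, 0.440) and Atp5c1, the rotating gamma subunit (89.7 and 44.7, 0.498). Uqcrc1, a core protein of complex III, had 34.2 and 18.4 CPM (0.538). Free RNA was estimated to make up 23.0% and 21.6% of the nuclear member UMIs of this class, and its part in these ratios was not tested.

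Ndufv3, a small accessory subunit of the NADH-binding module of complex I, went the other way. It had 27.1 CPM (38 UMIs) in PBS and 74.6 CPM (219 UMIs) in 6C5 neutrophil-like cells, a ratio of 2.76 (1.95 to 4.00). In the other 6 classes its ratio was between 1.10 and 1.30, so it was above 1 in all 7. Ndufs5 differed in direction between classes, with 62.0 and 98.3 CPM in B-like cells (ratio 1.58, 1.05 to 2.41, from 43 and 59 UMIs) and 55.6 and 21.8 CPM in neutrophil-like cells (0.393). Other complex I members were called in single classes: Ndufa5 in NK-like cells (76.4 and 115 CPM, 1.51) and Ndufb2 in B-like cells (60.6 and 105 CPM, 1.73). In monocyte/macrophage-like cells Ndufs1, the largest iron-sulphur subunit of complex I, had 34.3 and 19.7 CPM (0.576), and Ndufv2, another iron-sulphur subunit, had 174 and 114 CPM (0.656); with TMM factors neither was past 1.5-fold. The most abundant nuclear member of complex I by UMIs, Ndufa13, had 384 and 484 CPM in T-like cells (1.26) and 128 and 66.5 CPM in neutrophil-like cells (0.518).

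In complex III, 1 nuclear member was past 1.5-fold lower in monocyte/macrophage-like cells (Uqcrc2) and 3 in neutrophil-like cells (Uqcr11, Uqcrc1 and Uqcrb), where 28.9% and 27.5% of all measured genes were. With TMM factors only Uqcr11 was past it. Uqcrh, the hinge protein and the member of this complex with most UMIs, had 603 and 698 CPM in T-like cells (1.16) and 308 and 280 in monocyte/macrophage-like cells (0.909). Uqcrq was above 1 in all 7 classes, with ratios from 1.00 to 1.22. Uqcrfs1, the Rieske iron-sulphur protein, had 223 and 186 CPM in T-like cells (0.835) and Uqcr10 had 131 and 193 CPM in B-like cells (1.47). None of the 4 named last was past 1.5-fold in these classes on the CPM scale; with TMM factors Uqcr10 was, in B-like cells.

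Several complex IV subunits exist as alternative isoforms, and some of these differed between the libraries. Cox7a2l belongs to the COX7A family and joins complex III to complex IV in supercomplexes. It had 181 CPM in PBS and 91.8 in 6C5 monocyte/macrophage-like cells (0.506, 0.481 to 0.532), and 87.6 and 27.6 CPM in neutrophil-like cells (0.315, 0.235 to 0.421). The ratio was below 1 in all 7 monocyte/macrophage-like subclusters, from 0.466 to 0.871, and was 0.535 and 0.642 in the 2 neutrophil-like clusters. In NK-like and B-like cells it was 0.984 and 1.01. Within the COX7A family the share of Cox7a2l was 34.3% and 19.3% in monocyte/macrophage-like cells and 38.8% and 19.2% in neutrophil-like cells, and that of the common isoform Cox7a2 was 64.4% and 77.6%, and 60.9% and 79.9%. Cox7a1, the heart and muscle isoform, had 189 and 353 UMIs in monocyte/macrophage-like cells (2.09, 1.75 to 2.51).

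Cox6a2, a heart and muscle isoform, was the main COX6A message of the pDC-like cells, where it made up 72.9% and 76.4% of COX6A UMIs (947 and 1274 CPM). In T-like cells it had 1 and 0 UMIs against 1415 and 1572 of Cox6a1. In monocyte/macrophage-like cells it had 47 and 85 UMIs (2.03). Cox6b2, a testis isoform, had 4.96 and 1.87 CPM in monocyte/macrophage-like cells (0.376, 0.262 to 0.531) and 13.2 and 8.35 CPM in DC-like cells (0.633), from 134 and 45 and from 143 and 49 UMIs. These isoforms were called at low levels, and the cause was not tested.

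Ndufa4l2, a hypoxia-responsive relative of the complex IV subunit Ndufa4, was a melanoma-like message. It had 5.37 CPM (32 UMIs) in PBS and 33.7 CPM (608 UMIs) in 6C5 melanoma-like cells, a ratio of 6.27 (4.39 to 9.25). In monocyte/macrophage-like cells it had 13 and 45 UMIs, and in T-like and B-like cells none. Cox8a, the complex IV member with most UMIs, had 952 and 1034 CPM in T-like cells (1.09). Cox5b had 307 and 263 CPM in B-like cells (0.857).

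Within ATP synthase the catalytic subunits had ratios below 1. Atp5b had 766 and 602 CPM in T-like, 571 and 469 in NK-like, 394 and 299.9 in B-like and 623 and 399 in monocyte/macrophage-like cells. Its ratio was below 1 in all 7 classes, from 0.641 to 0.902, and in 5 of 7 with TMM factors. Atp5a1, the alpha subunit, was below 1 in all 7 under both scalings, from 0.589 to 0.871 in CPM, with 402 and 237 CPM in monocyte/macrophage-like cells. Only monocyte/macrophage-like cells were past 1.5-fold for either gene. Under TMM scaling the log2 ratios of this class shift up by 0.30, and neither gene is then past 1.5-fold.

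Atp5k, subunit e at the dimer interface, had 114 and 167 CPM in T-like cells (1.46, 1.28 to 1.67), 97.8 and 140 in NK-like cells (1.43) and 87.7 and 116 in DC-like cells (1.33). It was above 1 in all 5 classes where it had 100 UMIs. Atp5md, another small membrane subunit, had 255 and 379 CPM in monocyte/macrophage-like cells (1.49) and 271 and 364 in DC-like cells (1.34), but 199 and 161 in neutrophil-like cells (0.810). Atp5mpl had 238 and 325 CPM in T-like cells (1.36) but a ratio of 0.788 in neutrophil-like cells. Atp5l, the g subunit, was at 1.06 in T-like, 0.931 in monocyte/macrophage-like and 0.622 in neutrophil-like cells, so in CPM the small membrane subunits shared no direction over all classes. With TMM factors Atp5md and Atp5mpl were above 1 in all 7 classes, though only just in neutrophil-like cells (log2 0.04 and 0.003). Atp5l was then above 1 in 6 of 7, the exception being neutrophil-like cells. The proton-carrying c subunit is encoded by 3 genes with the same mature protein. Atp5g3 had 970 and 914 CPM in T-like and 789 and 563 in monocyte/macrophage-like cells (0.714), and made up 44.6% and 45.6%, and 43.3% and 42.5%, of the UMIs of the 3 genes, so their proportions differed little.

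Few nuclear members kept one direction throughout. Of 53 measured in all 7 classes, 3 (Uqcrq, Ndufa1 and Ndufv3) had a ratio above 1 in each and 5 (Atp5a1, Atp5b, Uqcrc1, Atp5c1 and Ndufv2) below 1 in each. With TMM factors 12 were above 1 in each, these 3 among them, and 1 (Atp5a1) below. Some of the CPM ratios lay close to 1, with counting intervals on both sides of it. Examples are Uqcrq in monocyte/macrophage-like cells (1.00, 0.974 to 1.03) and Atp5c1 in B-like cells (0.999, 0.787 to 1.27). Transcript length here is the median over all annotated protein-coding transcripts of a gene. It need not be the length of the message these cells express. By this measure the 3 above 1 in CPM had 419 to 645 bases (Ndufa1 the shortest, Ndufv3 the longest). Of the 5 below 1, Uqcrc1, at 533 bases, fell in that range, and Ndufv2 (813), Atp5c1, Atp5b (1916) and Atp5a1 were longer. Over all measured nuclear members, a longer annotated transcript went with a lower ratio in T-like (Spearman rho -0.60, n = 71 genes), monocyte/macrophage-like (-0.56, n = 74), NK-like (-0.50, n = 71), DC-like (-0.49, n = 72) and melanoma-like cells (-0.39, n = 73), and weakly in B-like (-0.19, n = 60) and neutrophil-like cells (-0.16, n = 52). In T-like cells the median log2 ratio was 0.16 for the 35 members shorter than the median of 645 bases, and -0.09 for the other 36. Over all genes rho was between -0.14 and 0.08, and over cytosolic ribosomal protein genes between -0.44 and -0.29. These correlations are across genes, which share the library and its depth and are not independent replicates, and the cause was not tested.

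**Figure D5:**
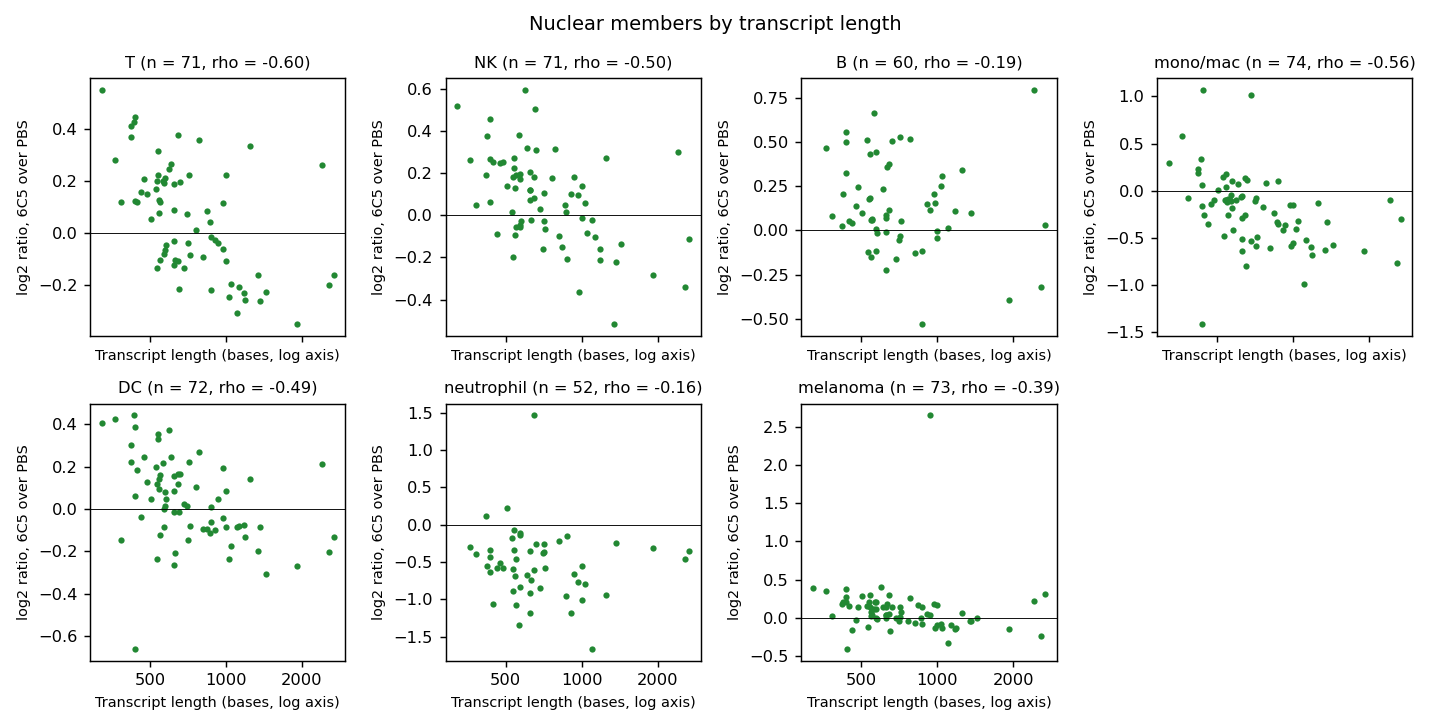
Log2 ratio of 6C5 over PBS against annotated transcript length in bases (log axis) for the nuclear members measured in each class. Length is the median over a gene's annotated protein-coding transcripts, n is the number of genes and rho is Spearman's. The points slope downward most clearly in T-like (-0.60) and monocyte/macrophage-like (-0.56) cells, and hardly in neutrophil-like cells (-0.16).

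Genes of the pathway outside the name rule were read in the same way. Of the 4 genes of complex II, 3 were past 1.5-fold lower in monocyte/macrophage-like cells: Sdha (99.0 and 59.1 CPM, 0.597), Sdhc (0.606) and Sdhd (0.630), with Sdhb at 0.756, where 28.9% of all measured genes were lower. Sdhb was lower in neutrophil-like cells (69.8 and 40.2 CPM, 0.576), and none was called in the other classes. The ratios are for whole classes, and the libraries filled the subclusters of monocyte/macrophage-like cells and the clusters of neutrophil-like cells unequally. With TMM factors no complex II gene was past 1.5-fold in any of the 7 classes. Cox4i1, the usual COX4 isoform, had 1060 and 796 CPM in monocyte/macrophage-like cells (0.751) and 405 and 243 in neutrophil-like cells (0.599). Cox4i2, the isoform linked to low oxygen, had 18.1 and 3.82 CPM in monocyte/macrophage-like cells (0.211). Higd1a, a hypoxia-inducible protein of the respiratory chain, had 124 and 250.3 CPM in monocyte/macrophage-like cells (2.03) and 69.1 and 305 in neutrophil-like cells (4.42). It was also past 1.5-fold higher in melanoma-like (495 and 755 CPM, 1.52) and B-like cells (1.56, from 46 and 62 UMIs). Its ratio was 1.17 in T-like, 1.18 in NK-like and 1.23 in DC-like cells. Cycs, which encodes cytochrome c, had ratios of 1.35 in monocyte/macrophage-like and 2.34 in neutrophil-like cells. Ndufab1, the acyl carrier protein of complex I, had a ratio of 1.55 in B-like cells, from 52 and 70 UMIs.

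Other mitochondrial gene lists are read against the background of monocyte/macrophage-like cells, where 28.9% of all measured genes were past 1.5-fold lower and 6.34% higher. The values are for the whole class, whose subclusters the libraries filled unequally, and the part of this make-up in them was not tested. Of 15 tricarboxylic acid cycle genes, which feed electrons to the chain, 8 were past 1.5-fold lower there and none higher (median log2 -0.61, all genes -0.33), for example Ogdh with 69.0 and 45.1 CPM (0.654). Of the genes that transcribe and maintain mitochondrial DNA, 11 of 21 measured were lower and none higher (median -0.61), among them Tfam (14.3 and 9.38 CPM, 0.656), the factor that packages mitochondrial DNA, and Polrmt (5.93 and 2.91 CPM, 0.490), its RNA polymerase. With TMM factors, which left 13.7% of all genes lower, 3 of the 15 and 4 of the 21 were lower. In the other 5 classes with measured genes, none of 50 combinations of class and gene of the mitochondrial DNA list was lower and 1 was higher, where 6.02% and 3.73% of the 32715 combinations of all measured genes were, and none was measured in neutrophil-like cells.

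The counts of the remaining mitochondrial lists stand against 28.9% of all measured genes lower and 6.34% higher in monocyte/macrophage-like cells, 27.5% and 17.6% in neutrophil-like cells, and 6.02% and 3.73% of combinations in the other 5 classes. Each of the 5 lists had a lower share under the background in monocyte/macrophage-like cells. Assembly factors of the complexes were higher for 1 and lower for 9 of 39 genes in monocyte/macrophage-like cells, and higher for 3 and lower for 3 of 128 combinations over the 5 classes other than monocyte/macrophage-like and neutrophil-like cells. Mitochondrial ribosomal proteins, which translate the 13 messages, were lower for 13 of 78 in monocyte/macrophage-like cells and for 2 of 305 combinations over the same 5 classes. Import and chaperone genes had 0 higher and 1 lower of 20, and carriers and membrane proteins 0 and 3 of 12, in monocyte/macrophage-like cells. In neutrophil-like cells the few measured genes of these lists gave 0 higher and 2 lower of 5 assembly factors, 1 and 5 of 16 mitochondrial ribosomal proteins, 2 and 1 of 9 import genes, 1 and 1 of 8 carriers and 0 and 2 of 4 tricarboxylic acid cycle genes. Biogenesis regulators had 1 higher and 2 lower of 9 in monocyte/macrophage-like cells, with the coactivator Ppargc1b at 12.1 and 6.06 CPM (0.502), and 0 higher and 2 lower of 3 in neutrophil-like cells.

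Hypoxia and glycolysis genes were the list with most calls upward: 14 of 20 in monocyte/macrophage-like cells (background 6.34%, median log2 0.67) and 17 of 19 in neutrophil-like cells (background 17.6%, median 1.45). In the other 5 classes 9 of 82 combinations were higher (background 3.73%) and 1 lower. The list shares Ndufa4l2 with the members and Bnip3 with the mitophagy list. Bnip3, a receptor for removal of mitochondria that responds to low oxygen, had 82.0 and 251 CPM in monocyte/macrophage-like cells (3.06), 128 and 674 in neutrophil-like cells (5.26), 24.0 and 46.6 in T-like cells (1.94) and 40.6 and 64.1 in DC-like cells (1.58). Pink1, the kinase that marks damaged mitochondria, was past 1.5-fold lower in the 5 classes where it had 100 UMIs. Its ratio ran from 0.476 in monocyte/macrophage-like cells (28.9% of all genes lower) to 0.621 in T-like cells (3.32%). The whole mitophagy list had 2 higher and 4 lower of 8 in monocyte/macrophage-like, 3 higher and 0 lower of 4 in neutrophil-like cells, and 2 higher and 6 lower of 25 combinations elsewhere. Of all measured genes, 28.9%, 27.5% and 6.02% were lower in these 3 groups, in this order. How these lists relate to the mitochondrial RNA was not tested.

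Lists that track cell state or quality also differed between the libraries. Cell cycle genes were lower for 17 of 18 in monocyte/macrophage-like cells (background 28.9%) and higher for 15 of 18 in melanoma-like cells (background 5.37%). Cytosolic ribosomal protein genes were lower for 44 of 79 in neutrophil-like (background 27.5%) and 10 of 80 in monocyte/macrophage-like cells (28.9%), which became 8 and 0 with TMM factors. They were higher for 2 and lower for 0 of 399 combinations in the other 5 classes. With TMM factors 8 of 80 were higher in melanoma-like cells, where 8.41% of all genes were. Genes of dissociation stress were higher for 4 and lower for 0 of 15 in monocyte/macrophage-like cells (background 6.34% higher), higher for 2 and lower for 4 of 15 in neutrophil-like cells (17.6% and 27.5%), and higher for 4 and lower for 6 of 71 combinations elsewhere. The nuclear-retained RNAs Malat1 and Neat1 had ratios of 1.59 and 0.640 in monocyte/macrophage-like cells, and neither was called in another class in CPM. With TMM factors Neat1 was not past 1.5-fold there. Malat1, with a CPM ratio of 1.43 in neutrophil-like cells, was then past 1.5-fold higher in that class, where 28.6% of all genes were. Their part in the member ratios was not tested.

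Barcodes outside the classes mostly shared the mitochondrial direction. Those like free RNA had 1.26% and 0.835% mitochondrial UMIs (ratio 0.666), and unnamed clusters with few markers 4.09% and 3.03% (0.741). A further unnamed cluster of low UMI counts, with 424 PBS and 36 6C5 barcodes, had 0.774% and 1.19% (1.53). Barcodes removed for more than 10% mitochondrial UMIs held 27.3% and 30.9% (1.13). Over all barcodes of at least 500 UMIs, before any other filter, the mitochondrial members made up 1.22% and 0.859% of UMIs (0.705) and the nuclear members 2.07% and 2.37% (1.14).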

How the data were processed

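The authors deposited raw UMI counts per gene and barcode for both libraries, unfiltered. Per the file headers the counts come from Cell Ranger 7.1.0; the submitters' processing notes list version 2.1.1, with mm10, and no source used here settles which, or whether intronic reads were counted. Intronic reads add UMIs to nuclear genes and not to the intronless mitochondrial genes, so what a nuclear level counts, and its relation to transcript length, depends on this. The other deposited files hold gene identifiers and barcodes only. The members and gene lists were chosen with earlier results of these data known.

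A barcode had to hold at least 500 UMIs and 300 genes, with a mitochondrial share of at most 10%. Scrublet's own threshold marked 0 barcodes, so the highest scores were removed at 0.8% per 1000 barcodes (1566 in PBS and 1467 in 6C5). Both libraries were clustered together (scanpy 1.11.5, leidenalg 0.10.2, resolution 1, 2000 variable genes, 30 components, 15 neighbours). Of the members, 7 were among the variable genes. Clusters correlating at 0.98 or more with barcodes of 10 to 100 UMIs stayed unnamed. Counts were summed per class and library and scaled to CPM; with 1 library per group there is no test, and ratios carry exact conditional binomial 95% intervals (scipy 1.17.1). A gene was called at 1.5-fold with at least 100 UMIs in the class. TMM factors came from edgeR 4.0.16. The summing was tested on simulated data. Named genes were the mitochondrial members, the member of each nuclear complex with most UMIs, the 3 highest and 3 lowest nuclear members of each class with at least 200 UMIs, isoform groups, and fixed genes outside the rule; other called members, and the genes named from lists, were named after their values were seen. Ndufa4 and Ndufa4l2 were counted with complex IV.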

Additional observations from a re-analysis of the deposited data

Results flagged for a closer look

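Ndufs5, a complex I subunit, had a log2 ratio of 0.66 in B-like cells and -1.35 in neutrophil-like cells, opposite directions past 1.5-fold in both; the difference was not tested. Data outside the classes compared showed values above the PBS library. The nuclear members had a ratio of 1.10 in barcodes of 10 to 100 UMIs, 1.27 in the unnamed barcodes like free RNA and 1.29 in the unnamed barcodes with few UMIs. The mitochondrial members had a ratio of 1.53 in the unnamed barcodes with few UMIs (424 in PBS and 36 in 6C5) and 1.13 in barcodes over 10% mitochondrial UMIs, against the lower ratios of the classes.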

How the results depend on the processing

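No paired analysis was possible because each group is 1 library. No replicate was left out, and the spread between animals is unknown. Alternatives without melanoma-like cells, without monocyte/macrophage-like and neutrophil-like cells, and averaged over subclusters were chosen after seeing the data. The averages for cells of 2000 to 8000 UMIs include a melanoma-like class of only 6 PBS and 30 6C5 cells.

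The nuclear log2 ratio averaged over classes (-0.03) was near 0 under each alternative: 0.11 with TMM, -0.012 without a mitochondrial limit, -0.019 with at least 1000 UMIs, 0.00048 without doublet removal, -0.014 at resolution 2, 0.0017 for cells of 2000 to 8000 UMIs, 0.021 as a mean over cells, -0.051 without melanoma-like cells, 0.089 without monocyte/macrophage-like and neutrophil-like cells and 0.051 over subclusters. The mitochondrial average (-0.74) was -0.60 with TMM, -0.73 with at most 5% mitochondrial UMIs, -0.72 with at least 1000 UMIs, -0.75 at resolution 2, -0.81 with each library clustered on its own, -0.78 for 2000 to 8000 UMIs, -0.72 with free RNA subtracted, -0.71 without cycling subclusters, -0.71 without monocyte/macrophage-like and neutrophil-like cells and -0.70 over subclusters.

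The mitochondrial minus nuclear average (-0.71) was -0.73 without a mitochondrial limit, -0.69 with at most 5%, -0.75 without doublet removal, -0.74 at resolution 2, -0.77 with separate clustering, -0.78 for 2000 to 8000 UMIs, -0.68 with free RNA subtracted, -0.68 without cycling subclusters, -0.75 as a mean over cells, -0.69 without melanoma-like cells, -0.80 without monocyte/macrophage-like and neutrophil-like cells and -0.76 over subclusters. In neutrophil-like cells this difference (-0.07) ranged from -0.36 to 0.37, above 0 in 4 of 16 alternatives. Nuclear calls over all classes, 7 higher and 35 lower of 480 combinations, were 4 and 8 at 2-fold and 12 and 12 with TMM. The mitochondrial sum was lower in each class compared under all 16 alternatives run per class.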
